A study of Mus musculus with 6 samples.

Results

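The cytosolic sulfotransferases and steroid sulfatase were followed as 8 genes, 7 sulfotransferases (SULT1E1, SULT1A1, SULT1B1, SULT1C2, SULT1C4, SULT2A1 and SULT2B1) and the sulfatase STS. They were found by symbol among 21448 array rows with values, which carry 18630 distinct single symbols. Each of the 8 symbols had 1 row, so the rule of taking the row with the highest mean of the 6 signals left no choice to make. Gene expression was measured in 3 control libraries and 3 anti-PD-1 libraries, named as in the sample labels. The tumours were grown from 1000000 Lewis lung carcinoma (LLC) cells, a transplantable line from a mouse lung tumour, given with Matrigel under the skin of the left flank. The control group is labelled as having no anti-PD-1 treatment, and the protocol gives an IgG2a isotype antibody as the alternative to an antibody against PD-1, a receptor that restrains T cells. Either antibody was injected into the peritoneum at 250 µg, repeated at intervals of 3 days. The strain, sex and age of the mice are not given in the sources used here, and no source says whether replicates are separate tumours, so the p-values rest on a spread that may be technical. The labels describe tumour tissue, whereas the series' design text describes LLC cells collected 7 days after treatment.

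Cytosolic sulfotransferases move a sulfonate group from the donor PAPS (phosphoadenosine phosphosulfate) to the hydroxyl groups of hormones, drugs and sterols. A sulfated steroid no longer binds its nuclear receptor, is more soluble in water and needs carrier proteins to cross membranes. Steroid sulfatase, an enzyme of the endoplasmic reticulum, removes the group again, so that both kinds of enzyme together set how much free oestrogen, androgen precursor or cholesterol sulfate a tissue holds. SULT1E1 is the oestrogen sulfotransferase, with a high affinity for oestradiol.

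Properties of the deposited table limit what a value stands for. The headers name a mouse array, while the symbols and chromosomes are those of human genes: 1299 rows lie on chromosomes 20 to 22, which mice lack. The species of the measured transcripts is therefore unsettled, as is the build of all positions given here. Groups were taken from the sample labels, but the group averages in the authors' deposited table carry the opposite letter in 21363 rows (99.6%, within 0.05). If those letters are right, each rise described here is a fall. For 111 rows the deposited average or SD could not be derived from the listed signals, none of them belonging to the 8 genes. Library medians lay between 7.71 and 7.77 on the log2 scale. Pearson correlations across rows (rows are not replicates) were 0.9955 to 0.9963 in the 6 library pairs within groups and 0.9808 to 0.9823 in the 9 pairs between groups. Epithelial markers were bright in both groups (EPCAM at 15.30 in control and 14.70 in anti-PD-1, KRT8 at 16.17 and 16.47). Of 8 T cell markers 7 had mean signals below 5.08, the lower quartile of row means, with CD3D at 3.70 and 3.81 and CD8A at 3.75 and 3.73; CD3E was above it, at 5.66 and 5.79. The endothelial marker PECAM1 (4.32 and 4.25) and the macrophage marker ADGRE1 (3.62 and 3.79) were also below it. Not all markers of host cells were dim: 4 of 8 macrophage markers lay below that quartile, while CD68 (14.40 and 12.76) and CSF1R (9.41 and 8.99) were above the median row. Of 7 measured fibroblast markers 2 were below the lower quartile, and COL1A1 (11.10 and 11.46) and COL1A2 (10.54 and 13.69) were bright.

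Among the 8 genes, SULT1E1 was much higher in the libraries labelled anti-PD-1, SULT2B1 was lower, and the other sulfotransferases and STS did not pass the test. SULT1E1 had log2 signals of 4.04, 4.07 and 3.99 in control replicates 1 to 3 and of 8.71, 9.17 and 8.86 in anti-PD-1 replicates 1 to 3. All 3 control libraries were low, all 3 anti-PD-1 libraries were high, and 4.64 separated the nearest libraries of the groups. The group means were 4.03 ± 0.04 and 8.91 ± 0.23 (SD, n = 3 each), a log2 difference of 4.88 ± 0.13 (SE from limma). As measured, this was the 9th largest rise of 21448 rows. The size of this difference was known when the gene was chosen, so it is given as a description, with no test. In the authors' deposited table SULT1E1 was marked expressed in the group named C and not expressed in the group named P, with averages of 8.89 and 4.04 and a fold change of 28.89. The average of 4.04, marked not expressed, is that of the control signals. Among rows marked expressed, the lowest signals in control replicates 1 to 3 were 2.95, 2.97 and 3.09, so signal level alone does not place 4.03 at background. If the mark is right and the control signal is background, the measured 29.4-fold rise in anti-PD-1 is a lower bound. That bound does not cover the spread between libraries: without each library in turn the log2 difference stood between 4.75 and 4.98. In bulk samples fewer cells of a type and less RNA per cell cannot be told apart.

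**Figure D1:**
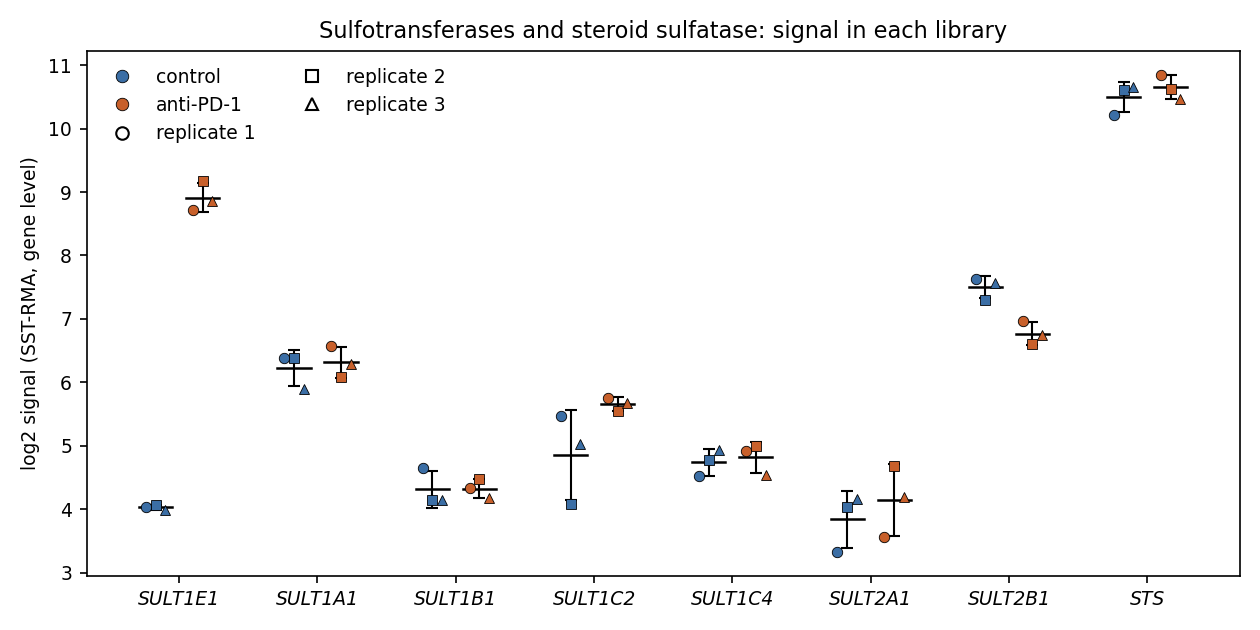
Log2 signal (vertical axis) of the 8 genes in each library, control in blue and anti-PD-1 in orange, with the symbol shape giving the replicate number; horizontal lines are group means and bars are SDs over 3 libraries. SULT1E1 goes from about 4.03 to 8.91, SULT2B1 from 7.50 to 6.77, and STS stays between 10.22 and 10.85 in all 6 libraries; signals of different genes are not comparable as amounts.

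SULT2B1, which sulfates cholesterol and pregnenolone and is known from skin, had log2 signals of 7.63, 7.30 and 7.56 in control and of 6.96, 6.61 and 6.74 in anti-PD-1. Every anti-PD-1 library lay below every control library. SULT2B1 fell by 0.73 ± 0.13 (SE) on the log2 scale, from 7.50 ± 0.17 to 6.77 ± 0.18 (SD, n = 3 each), with an adjusted p of 0.00638 in limma. Apart from SULT1E1, SULT2B1 was the 1 gene among the remaining 7 past the adjusted threshold of 0.05, 0 were higher (1 at an unadjusted p under 0.05 in limma), and 6 did not pass. Over all rows 29.8% passed, 14.7% higher and 15.1% lower, so 1 of 7 is no more than the share among all rows. Adjustment was by Benjamini-Hochberg over all 21448 rows.

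SULT1C2, a phenol sulfotransferase of the 1C branch, had log2 signals of 5.47, 4.08 and 5.03 in control and of 5.76, 5.55 and 5.67 in anti-PD-1. The groups did not overlap, but only 0.08 lay between them, and control replicate 2 was far below the other controls. The difference was 0.80 ± 0.33 (SE; 95% interval 0.03 to 1.57 before adjustment) and did not pass (adjusted p = 0.116 in limma). Without control replicate 2 the difference was 0.41 (adjusted p = 0.12 in limma), and without control replicate 1 it was 1.10 and passed (adjusted p = 0.0359 in limma). It also passed at 0.80 with a trended robust prior (adjusted p = 0.0327 in limma). With SULT1E1 and SULT2B1, this made 3 of the 8 genes whose groups did not overlap, where 43.5% of all rows had groups apart; 2 of the 3 were higher in anti-PD-1 and 1 was lower.

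The remaining 5 genes had overlapping groups. SULT1A1, the main phenol sulfotransferase of human liver, had log2 signals of 6.39, 6.39 and 5.90 in control and of 6.57, 6.09 and 6.29 in anti-PD-1. Its difference of 0.09 ± 0.18 (SE; 95% interval -0.34 to 0.52) is not distinguishable from 0 at this spread. SULT1A1 has near-identical paralogs, so its row may carry their signal too.

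SULT1B1, which acts on thyroid hormones, had signals of 4.65, 4.15 and 4.15 in control and of 4.33, 4.47 and 4.18 in anti-PD-1, a difference of 0.01 ± 0.16 (95% interval -0.37 to 0.39). SULT1C4, a sulfotransferase of the same 1C branch as SULT1C2, had signals of 4.52, 4.77 and 4.94 against 4.92, 4.99 and 4.54, a difference of 0.07 ± 0.16 (95% interval -0.31 to 0.45). SULT2A1, which sulfates dehydroepiandrosterone and bile acids in liver and adrenal, had signals of 3.33, 4.04 and 4.16 against 3.56, 4.68 and 4.2, a difference of 0.30 ± 0.33 (95% interval -0.47 to 1.08). The means of these 3 genes lay below the lower quartile of row means, and SULT1B1 and SULT2A1 were marked not expressed in both groups of the authors' deposited table. A change in transcripts this dim could go undetected.

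STS, the enzyme that undoes steroid sulfation, was the 1 gene of the 8 with a mean signal above the median of row means. Its log2 signals were 10.22, 10.60 and 10.66 in control and 10.85, 10.63 and 10.47 in anti-PD-1, and the groups overlapped. The difference was 0.16 ± 0.15 (SE) with a 95% interval from -0.21 to 0.52 (adjusted p = 0.516 in limma). Both ends of that interval are far smaller in size than the difference of SULT1E1.

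**Figure D2:**
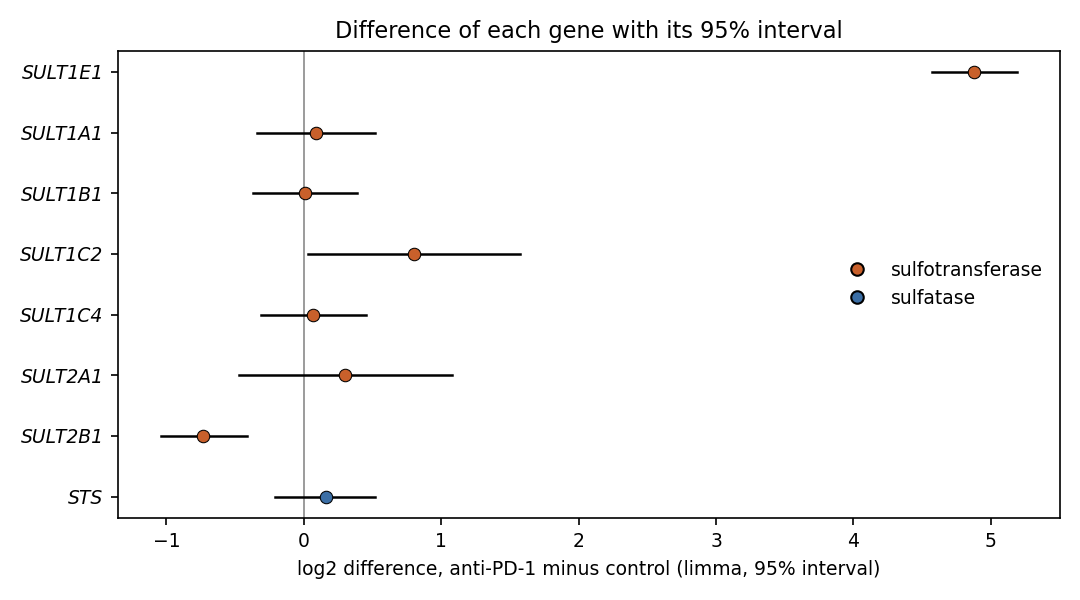
Log2 difference between anti-PD-1 and control (horizontal axis, limma) of each of the 8 genes, with lines for 95% intervals before adjustment; orange points are sulfotransferases and the blue point is the sulfatase. SULT1E1 stands at 4.88 and SULT2B1 at -0.73, while the intervals of SULT1A1, SULT1B1, SULT1C4, SULT2A1 and STS include 0. SULT1E1 was chosen with its difference known, so its interval is a description and not a test.

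The 8 genes also differed in spread. The pooled SD within groups was 0.17 for SULT1E1 and 0.18 for SULT2B1, near the median of 0.16 over all rows, and 0.22 to 0.26 for STS, SULT1B1, SULT1C4 and SULT1A1. SULT1C2 and SULT2A1 were the most variable, with 0.51 each. The median log2 difference was 0.12 for the 8 genes and 0.01 for all rows. Median absolute differences were 0.23 and 0.24.

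Of the 6 other cytosolic sulfotransferases looked for, 4 had a row of their own and 0 of them passed in limma, with 0 also at an unadjusted p under 0.05. These were SULT1A2 (-0.05 ± 0.13), SULT1C3 (0.19 ± 0.21), SULT4A1 (0.04 ± 0.30) and SULT6B1 (-0.51 ± 0.32), as log2 differences with SE. Over all rows 29.8% passed, and the mean signals of SULT1C3 and SULT6B1 lay below the lower quartile of row means. Without anti-PD-1 replicate 2, 1 of the 4 passed in the lower direction. SULT1A3 and SULT1A4, near-identical genes whose human products sulfate dopamine and other catecholamines, share rows with several symbols. The row with just these 2 symbols had signals of 9.45, 10.14 and 9.82 in control and of 9.31, 8.73 and 9.0 in anti-PD-1. Every anti-PD-1 library was below every control library there, with a difference of -0.79 ± 0.21 (SE, adjusted p = 0.0302 in limma). A second row, which also names SLX1A and SLX1B, differed by -0.59 ± 0.16 (SE, adjusted p = 0.0301 in limma). Both rows were singled out after their values were seen.

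By the deposited positions, some of the sulfotransferase genes share a chromosome. SULT1E1 lies on chromosome 4 from 69841212 to 69860152 and SULT1B1 beside it from 69721162 to 69787961, both on the minus strand. SULT1C2 (108288639 to 108309915) and SULT1C4 (108377911 to 108388057) lie together on chromosome 2. SULT2A1 (47870466 to 47886397) and SULT2B1 (48552075 to 48599427) are both on chromosome 19, over 500 kb apart. SULT1A1 is on chromosome 16 from 28605196 to 28623625 and STS on chromosome X from 7219431 to 7354810. Of 12 genes whose start lies within 500 kb of that of SULT1E1, 0 passed in limma, beside 29.8% of all rows. Their log2 differences ran from -0.32 to 0.47. With no adjustment 1 of them passed in limma, the casein gene CSN1S1 (-0.32 ± 0.13 SE, adjusted p = 0.11 in limma). The neighbours include UGT2B4, a glucuronosyltransferase (0.31 ± 0.23 SE), the milk casein genes CSN2 and CSN3, and the saliva genes STATH, HTN1 and HTN3. In 11 of the 12, UGT2B4 being the exception, the mean signal was below the lower quartile of rows.

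**Figure D3:**
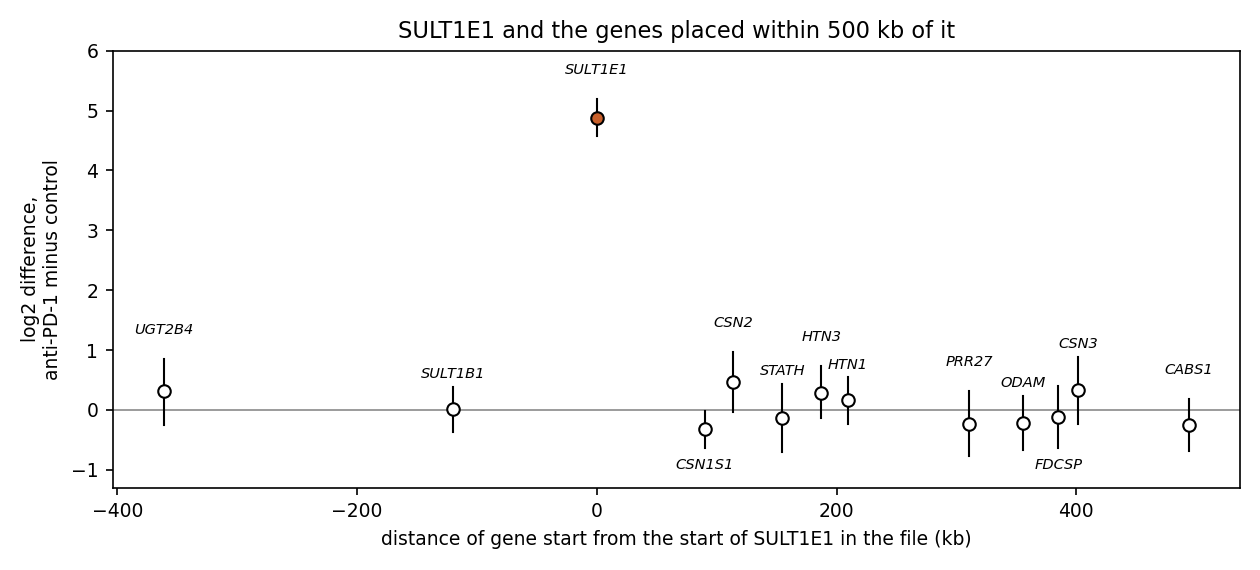
Log2 difference between anti-PD-1 and control (vertical axis, with 95% limma intervals before adjustment) of SULT1E1 and the 12 genes placed within 500 kb, by distance in kb between gene starts (horizontal axis). SULT1E1, in orange, stands at 4.88, and its neighbours lie between -0.32 and 0.47. The interval of SULT1E1, whose difference was known when it was chosen, is a description and not a test.

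The genes most like SULT1E1 over the 6 libraries were picked by Euclidean distance between signals centred on each row's mean, among 18463 other symbols. The nearest were BCAM, a laminin receptor (distance 0.43), C1S, a complement protease (0.49), CEMIP, a hyaluronan-degrading factor (0.49), SUSD2, a membrane protein (0.50), and CLDN1, a tight junction protein (0.64). The median distance over all symbols compared was 5.98. With 2 groups of 3 libraries, this measure mostly finds genes with a group difference of like size, here from 4.55 for SUSD2 to 4.94 for CEMIP.

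Among genes that supply the sulfonate donor, PAPSS1, PAPSS2, SLC26A2 and SLC35B3 were higher in anti-PD-1. Of 10 measured genes of PAPS synthesis, PAPS transport, phosphatase clearance and sulfate uptake, 4 rose and 0 fell in limma (6 and 0 at an unadjusted p under 0.05), with a median difference of 0.35 beside 0.01 over all rows, and 14.7% of all rows rose. PAPSS2, a PAPS synthase, had log2 signals of 11.16, 11.11 and 11.01 in control and of 12.25, 12.14 and 12.14 in anti-PD-1. The groups lay well apart, with a rise of 1.08 ± 0.09 (SE, adjusted p = 0.00017 in limma). Its paralog PAPSS1 rose by 0.53 ± 0.09 (SE, adjusted p = 0.00392 in limma), from 10.84, 10.87 and 10.89 to 11.32, 11.37 and 11.49.

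SLC26A2, a sulfate transporter of the plasma membrane, rose by 1.12 ± 0.10 (SE, adjusted p = 0.000292 in limma), with signals of 10.76, 10.88 and 10.68 in control and of 12.03, 11.79 and 11.87 in anti-PD-1. SLC35B3, which carries PAPS into the Golgi, rose by 0.77 ± 0.14 (SE, adjusted p = 0.00555 in limma). BPNT1, which clears the spent donor, differed by 0.25 ± 0.09 (SE) and did not pass (adjusted p = 0.0881 in limma).

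**Figure D4:**
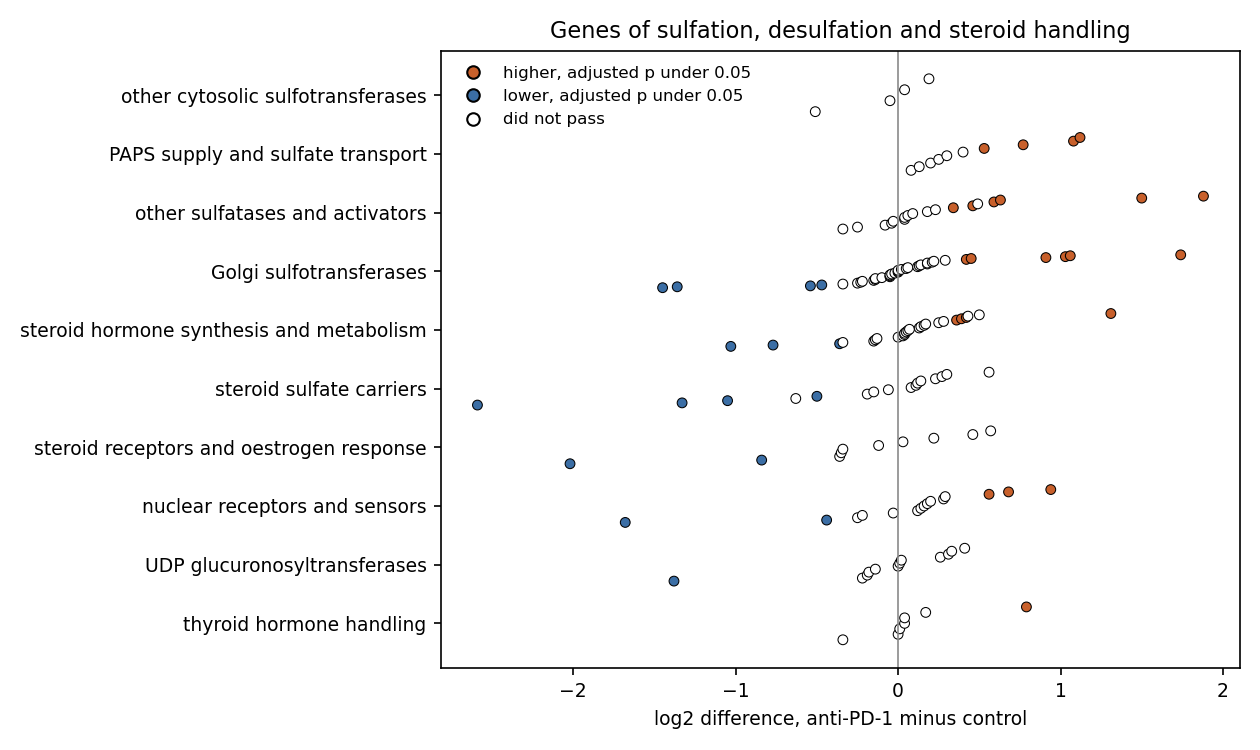
Log2 difference between anti-PD-1 and control (horizontal axis) of every measured gene in 10 lists (vertical axis); orange points passed as higher, blue points passed as lower, and open points did not pass an adjusted p of 0.05 in limma. PAPS supply shows 4 higher and 0 lower genes, the other sulfatases 6 and 0, and the steroid sulfate carriers 0 and 4.

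Among 18 other sulfatases and their activating factors, 6 rose and 0 fell in limma (8 and 0 at an unadjusted p under 0.05), beside 29.8% of all rows that passed and 14.7% that rose, with a median difference of 0.13. ARSG, a lysosomal sulfatase, had signals of 5.81, 5.73 and 5.19 in control and of 7.14, 7.69 and 7.55 in anti-PD-1, a rise of 1.88 ± 0.21 (SE, adjusted p = 0.000684 in limma). ARSD, which in the human genome neighbours other arylsulfatase genes on the X chromosome, had signals of 10.87, 10.96 and 10.82 against 12.59, 12.32 and 12.24, a rise of 1.5 ± 0.12 (SE, adjusted p = 0.000136 in limma). Both genes were higher in every anti-PD-1 library, unlike STS. ARSK, another lysosomal sulfatase, rose by 0.59 ± 0.11 (SE, adjusted p = 0.00633 in limma). SUMF1, the enzyme that activates sulfatases, STS included, rose by 0.46 ± 0.12 (SE, adjusted p = 0.0243 in limma). ARSB, which acts on dermatan sulfate, rose by 0.34 ± 0.09 (SE, adjusted p = 0.0268 in limma). Without 1 library the list had 4 to 6 genes past the threshold, 1 of them lower without control replicate 3. The call of SUMF1 was lost without anti-PD-1 replicate 1 or 2 or control replicate 1 or 3 (adjusted p from 0.0593 to 0.0729 in limma), and that of ARSB without anti-PD-1 replicate 2 or 3 or control replicate 2 or 3 (adjusted p from 0.0584 to 0.0882 in limma).

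The Golgi sulfotransferases, which sulfate glycans and tyrosines and share the PAPS pool with the cytosolic enzymes, went both ways: 6 of 37 rose and 4 fell, with a median difference of 0.00. That is about the share among all rows, of which 14.7% rose and 15.1% fell. HS6ST2, a heparan sulfate 6-O-sulfotransferase, rose by 1.74 ± 0.10 (SE) and NDST1, which starts heparan sulfate modification, by 1.06 ± 0.09 (SE). CHST11, a chondroitin 4-O-sulfotransferase, fell by 1.45 ± 0.09 (SE) and CHST4, which acts on N-acetylglucosamine, by 1.36 ± 0.13 (SE). Adjusted p-values in limma were 4.53e-05 for HS6ST2, 0.000226 for NDST1, 5.47e-05 for CHST11 and 0.000364 for CHST4.

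Of the carriers that move sulfated steroids across the plasma membrane, SLCO4A1, ABCC3, ABCG2 and SLCO3A1 were lower in anti-PD-1. Of 16 measured, 4 fell and 0 rose in limma (5 and 1 at an unadjusted p under 0.05), beside 15.1% of all rows that fell, and the list's median difference was 0.01. SLCO4A1, an uptake carrier of the organic anion family, had signals of 8.12, 8.74 and 8.63 in control and of 5.93, 5.81 and 5.99 in anti-PD-1, and fell by 2.59 ± 0.17 (SE, adjusted p = 6.87e-05 in limma). ABCG2, an efflux pump that accepts oestrone sulfate, had signals of 12.15, 12.30 and 12.15 against 11.28, 10.98 and 11.18, and fell by 1.05 ± 0.11 (SE, adjusted p = 0.000494 in limma). ABCC3, another efflux pump, fell by 1.33 ± 0.16 (SE) and SLCO3A1 by 0.50 ± 0.11 (SE). The efflux pumps ABCC1 (0.08 ± 0.11 SE) and ABCC4 (-0.15 ± 0.09 SE) did not pass. Without anti-PD-1 replicate 1 or without control replicate 3, and with a trended robust prior, 1 carrier also passed as higher.

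Enzymes that make or interconvert steroid hormones went both ways, with 4 of 26 higher and 3 lower and a median difference of 0.06, again near the 29.8% of all rows that passed. AKR1C3, a reductase that forms potent androgens and oestrogens, rose by 1.31 ± 0.10 (SE, adjusted p = 0.000105 in limma), from 10.20, 10.30 and 10.28 to 11.70, 11.55 and 11.47. HSD17B8, which oxidises oestradiol, fell by 1.03 ± 0.17 (SE, adjusted p = 0.00463 in limma), and HSD11B2, which inactivates cortisol, by 0.77 ± 0.12 (SE, adjusted p = 0.00259 in limma). CYP19A1, the aromatase that makes oestrogens, was dim in both groups (4.70 and 4.76). The count of 7 changed genes became 4 without anti-PD-1 replicate 2, without control replicate 2 or without control replicate 3.

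Nuclear receptors for oestrogens and progesterone were dim. ESR1, oestrogen receptor alpha, had mean signals of 3.48 and 3.52, ESR2 of 4.34 and 3.99 and PGR, the progesterone receptor, of 4.15 and 4.72. GPER1, a membrane oestrogen receptor, was bright (11.09 and 11.55) and did not pass (0.46 ± 0.15 SE, adjusted p = 0.0574 in limma). Of 10 genes of steroid receptors and oestrogen response 2 fell and 0 rose in limma (3 and 1 at an unadjusted p under 0.05). Over all rows 15.1% fell and 14.7% rose. The 2 genes of the list that fell were the transcription factor MYB (-2.02 ± 0.09 SE) and the carbonic anhydrase CA12 (-0.84 ± 0.10 SE). With quantile normalization 4 genes of this list passed, 1 of them higher. With dim rows left out, with a trended robust prior or without control replicate 2, 1 gene also passed as higher.

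Among 15 nuclear receptors and sensors, some of which are known to control sulfotransferase genes in liver, 3 rose and 2 fell. Of the 3, RORA was dim in both groups (3.9 and 4.57). Its call was lost with a replicate block, and without anti-PD-1 replicate 1 or 3 or control replicate 1 or 3 (adjusted p from 0.0695 to 0.0774 in limma). PPARG, the lipid-sensing receptor of fat cells, had signals of 11.15, 11.35 and 11.24 in control and of 9.46, 9.59 and 9.66 in anti-PD-1, and fell by 1.68 ± 0.10 (SE, adjusted p = 4.56e-05 in limma). AHR, the aryl hydrocarbon receptor, rose by 0.94 ± 0.08 (SE, adjusted p = 0.000202 in limma), while VDR, the vitamin D receptor, fell by 0.44 ± 0.08 (SE). The xenobiotic receptors NR1I2 (4.45 and 4.61) and NR1I3 (4.23 and 4.52), inducers of sulfotransferases in liver, were below the lower quartile in both groups. UDP glucuronosyltransferases conjugate many of the same substrates. Of 12 genes listed as these enzymes and their relatives, 1 was lower and 0 higher in limma (2 and 0 at an unadjusted p under 0.05). The lower gene was UGT8 (-1.38 ± 0.10 SE), a galactosyltransferase and not itself a glucuronosyltransferase. Of 7 genes of thyroid hormone handling, 1 rose, the deiodinase DIO2 (0.79 ± 0.11 SE). Over the 10 lists 40 of 155 genes passed (25.8%, beside 29.8% of all rows), 24 higher and 16 lower.

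Markers of cell types that express sulfotransferases were set beside these results. Their counts stand beside 14.7% of all rows that rose and 15.1% that fell. Of 8 keratinocyte markers, whose cells express SULT2B1, 2 rose: KRT14, which stayed dim (3.43 and 4.94), and TP63 (8.57 and 9.50). The summed log2 signal of the list was 40.2 to 41.0 in control and 42.7 to 44.4 in anti-PD-1. The other 6 markers did not pass: KRT5 (4.60 and 5.02), KRT1 (3.96 and 3.95), KRT10 (4.42 and 4.57), LOR (4.86 and 5.15), IVL (6.14 and 6.26) and DSG3 (4.58 and 4.42). Of the 8 markers 6 had mean signals below the lower quartile of row means. Of 7 measured fibroblast markers 2 rose, COL1A2 (10.54 and 13.69) and PDGFRB (6.41 and 7.66), with sums of 47.2 to 48.5 and of 53.5 to 54.2. DCN (5.72 and 5.74), PDGFRA (5.12 and 5.33) and THY1 (4.37 and 4.46) did not pass. Fibroblast and keratinocyte sums were thus higher in the libraries in which SULT1E1 was high. Endothelial sums were also higher there (28.2 to 29.4 in control and 29.7 to 30.3 in anti-PD-1). Epithelial carcinoma sums were lower there (80.6 to 81.7 in control and 79.6 to 79.9 in anti-PD-1). The part of these cell types in the result was not tested. Of 6 adipocyte markers 0 passed in limma (1 at an unadjusted p under 0.05; sums of 27.1 to 29.2 and of 27.7 to 28.4), with ADIPOQ at 3.63 and 3.47. Of 6 hepatocyte markers 1 fell, SERPINA1 (11.51 and 9.49), with ALB at 5.26 and 5.45. Hepatocyte sums were 37.1 to 38.5 in control and 36.2 to 37.1 in anti-PD-1. Sums of macrophage markers (53.5 to 55.0 in control and 53.2 to 54.2 in anti-PD-1) and of T cell markers (32.5 to 33.9 and 33.7 to 34.6) overlapped. Of 8 macrophage markers CD14 rose (7.40 and 8.59) and CD68 fell (14.40 and 12.76), and of 8 T cell markers CD4 fell within the dim range (5.0 and 4.53). Of 6 endothelial markers 0 passed in limma (1 at an unadjusted p under 0.05). Of 6 epithelial carcinoma markers KRT8 rose and EPCAM and ESRP1 fell; CDH1, which did not pass, is 1 of the 111 rows in conflict.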

How the data were processed

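Expression was measured on single-channel arrays in 6 libraries, 3 per group. Per the file headers, the authors made log2 signals at the gene level with SST-RMA from a Clariom S mouse array, with Transcriptome Analysis Console, a tool listed in the submitters' processing notes with no version. Besides the signals, the authors' deposited workbook gives group averages (log2), SDs, a signed fold change (here a score), a p-value and a false discovery rate for each row. The workbook and the value table held the same signals (largest difference 0). Of 22206 identifiers, 758 had no values.

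Differences are anti-PD-1 minus control, tested 2-sided with lmFit and eBayes of limma 3.58.1 under R 4.3.3, with group alone in the model and Benjamini-Hochberg adjustment over all 21448 rows. Tables were read with pandas 2.3.3. The fit was tested on simulated data. A gene with several rows was represented by its row of highest mean, and rows with several symbols were named only where stated. Authors' averages were compared with Tukey biweight means at a tolerance of 0.05, and SDs at 0.02. Fold changes come from log2 differences, and the number of arrays limits precision.

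The members, lists and tests were chosen with earlier results of these data known. Named genes are all 8 members, list genes past the threshold (up to 6 a list) with others by smallest p, the 5 profiles nearest to SULT1E1, its neighbours within 500 kb, and markers. Some further list genes (steroid receptors, aromatase, xenobiotic receptors, efflux pumps) were named after their values were seen. Alternatives were quantile normalization, median centring, a filter on dim rows, 1 row per symbol, a trended robust prior, array weights, a replicate block, removal of each library, and omission of the 111 rows in conflict. Some values of single genes are not reported here.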

Additional observations from a re-analysis of the deposited data

How the results depend on the processing

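Over the alternatives, 100 of 109 values of the 8 genes kept their sign. The 9 that changed it belong to 3 genes that never passed: SULT1B1 at -0.04 with median centring and -0.02 with quantile normalization, and, without each library in turn, SULT1B1 from -0.07 to 0.18, SULT1A1 from -0.07 to 0.20 and SULT1C4 from -0.04 to 0.21. The values that changed side of the threshold were the differences of SULT1C2 that passed with a trended robust prior (0.80) and without control replicate 1 (1.10, against 0.41 without control replicate 2); the cause was not tested. The count of genes past the threshold, SULT1E1 aside, went from 1 to 2 with the trended robust prior, of which 1 was higher where the main value was 0. Without each library in turn this count ranged from 1 to 2, with 0 to 1 higher, and SULT1E1 stood between 4.75 and 4.98. SULT2B1 ranged from -0.82 to -0.65 without each library. All rows past the threshold ranged from 4901 to 5452 without each library. Median centring moved their split from 3160 higher and 3231 lower to 2778 and 3673. Of 629 values of other named genes 31 lost their call and 0 reversed. Of 420 counts of single lists, 22 moved by over 1.5 times or changed to or from 0. Libraries of the same replicate number did not deviate together from their group means (correlations 0.013, -0.024 and 0.013), and only 2 of 6 were closest to the library sharing their number; a replicate block gave 5363 rows, left the calls of the 8 genes as they were, and gave 4 in place of 7 changed genes of steroid hormone metabolism and 1 higher carrier in place of 0. SULT1B1, SULT1C4 and SULT2A1 fell below the filter on dim rows and had no value there. No symbol had a second row to try. Without scanner-level background, a change in dim rows may be missed.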
